A study of Mus musculus with 18 samples.

Results

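Chimeric reads of the microRNA (miRNA) seed family of miR-17, miR-20, miR-93 and miR-106a/b were described in mouse thymocytes: which members they carried, where in the transcriptome they lay, and how they stood in mice without miR-181a/b-1. The members were chosen by name, as reads that the deposited files assign to mmu-miR-17-5p, mmu-miR-20a-5p, mmu-miR-20b-5p, mmu-miR-93-5p, mmu-miR-106a-5p or mmu-miR-106b-5p (the species prefix mmu is left out below). They made up 49328 of the 411434 chimeric reads of 6 Ago2 immunoprecipitation (Ago2 IP) libraries, with reads for 5 of the 6 names, among 369 miRNA names seen in those libraries. The study used miR-eCLIP, in which UV light of 254 nm ties RNA to the Argonaute protein Ago2, Ago2 is precipitated, and each miRNA is ligated to the RNA fragment it was bound to, so that 1 chimeric read names a miRNA and a position on its target. Total thymocytes came from mice 6 weeks of age kept free of specific pathogens, either C57BL/6 (wild type, 3 libraries) or B6.Mirc14tm1.1Ankr, which lacks the hairpin genes Mir181a-1 and Mir181b-1 (the knockout, 3 libraries). The labels name no other allele and no treatment for either group. The labels do not say whether each library came from 1 mouse or from pooled mice, and p-values measure only the spread between these libraries. A further 6 libraries had been enriched for miR-181, and 6 inputs were not analysed here.

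miRNAs guide Ago proteins to messenger RNAs mainly through their seed, the bases from position 2 to position 8, and lower the stability and translation of what they bind. The family studied here is made from 3 hairpin clusters, miR-17-92, miR-106a-363 and miR-106b-25, and is known as a promoter of lymphocyte proliferation and survival, through targets such as the pro-apoptotic gene Bcl2l11. Since members share their seed, they are thought to share most of their targets.

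The mature sequences (RefSeq, GRCm38.p6) are shown from 5′ to 3′ with the seed in capitals, since the seed defines the family and the remaining bases are what can set members apart. miR-18a-5p, encoded beside miR-17-5p, is added for comparison.
miR-17-5p: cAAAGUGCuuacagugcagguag
miR-20a-5p: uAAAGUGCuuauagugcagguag
miR-20b-5p: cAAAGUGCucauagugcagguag
miR-93-5p: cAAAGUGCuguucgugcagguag
miR-106a-5p: cAAAGUGCuaacagugcagguag
miR-106b-5p: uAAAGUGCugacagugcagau
miR-18a-5p: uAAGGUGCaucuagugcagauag

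Positions are counted from 1 at the 5′ end, with the base of miR-17-5p first. miR-106a-5p differed from miR-17-5p by 1 substitution, U10A. miR-20a-5p differed by C1U and C12U, and miR-20b-5p by U10C and C12U. miR-93-5p differed by 4 neighbouring bases, U10G, A11U, C12U and A13C. Over its shorter length miR-106b-5p differed by C1U, U10G and G20A. All substitutions among the family lay outside the seed, while miR-18a-5p carried A4G within it. miR-17-5p and miR-20a-5p are encoded on chromosome 14, miR-20b-5p and miR-106a-5p on chromosome X, and miR-93-5p and miR-106b-5p on chromosome 5.

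The libraries held between 43983 and 117849 chimeric reads. Reads of miR-181 made up between 30.2% and 32.3% of the wild-type libraries and between 1.33% and 1.45% of the knockout libraries, as the genotype labels imply. For this reason shares are given of the reads that carried any other miRNA (non-181 reads, 337802 in all). Reads were named by the gene span they lay in (RefSeq, GRCm38.p6), and 94.0% of the family's reads received a name. All 13 thymocyte genes on a marker list, from Cd4 to Bcl11b, held chimeric reads, 4435 in all, of which 342 carried the family. Summed over the list they lay between 10322 and 12075 reads per 1000000 chimeric reads in wild type and between 9211 and 10173 in the knockout. This scale includes the miR-181 reads, whose share differs between the genotypes, so these ranges cannot be compared as RNA levels or cell content. B cell markers held 6 reads (4 of 5 genes, Ms4a1 at 0), myeloid markers 14 (4 of 5, Cd68 at 0), erythroid markers 19 (4 of 5) and thymic epithelial markers none (0 of 5 genes). Of 8 miRNAs known from other cells, 2 had reads, 153 in all. Reads on a gene depend on miRNA binding as well as on its RNA level, and fewer cells of a type cannot be told apart from less RNA per cell.

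The family held a similar share of the non-181 reads in every library, 14.6% over all 6. Its share was 14.96%, 14.4% and 14.7% in the 3 wild-type libraries and 13.96%, 14.6% and 14.9% in the 3 knockout libraries. The means were 14.7% ± 0.289 and 14.5% ± 0.480 (SD, n = 3 each), and the ranges overlapped. With miR-181 reads kept in the denominator the shares were 10.1% ± 0.289 and 14.3% ± 0.465. In the deepest library the 95% Wilson interval ran from 14.7% to 15.2%, in the shallowest from 14.3% to 15.1%; such intervals cover counting error only. Counted as reads of the whole seed family, the knockout differed from wild type by a log2 fold change of -0.07 (SE 0.05, adjusted p = 0.168, edgeR quasi-likelihood test over 92 seed families).

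miR-20a-5p was the most frequent member with 15052 reads, 30.5% of the family. It was followed by miR-17-5p with 13703 (27.8%), miR-93-5p with 8685 (17.6%), miR-20b-5p with 6677 (13.5%) and miR-106a-5p with 5211 (10.6%). The order was the same in all 6 libraries. miR-20a-5p took between 29.8% and 32.2% of the family's reads, miR-17-5p between 26.9% and 28.3%, miR-93-5p between 17.0% and 17.9%, miR-20b-5p between 12.6% and 14.2%, and miR-106a-5p between 9.84% and 11.4%. By hairpin cluster, the miR-17-92 members held 58.3%, the miR-106a-363 members 24.1% and the miR-106b-25 members 17.6%. Among all non-181 miRNAs, miR-20a-5p ranked 3 and miR-17-5p 5, after the blood-cell miRNA miR-142a-3p with 135712 reads. No read carried the name miR-106b-5p in any of the 12 libraries, a share of at most 0.0101% in the shallowest Ago2 IP library by the limit that 0 reads allow (3 reads), while its partner strand miR-106b-3p had 17 reads. The sources used here do not list the miRNA names to which reads were matched. The same held for miR-92a-3p, a neighbour in the miR-17-92 cluster, with 0 reads.

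**Figure D1:**
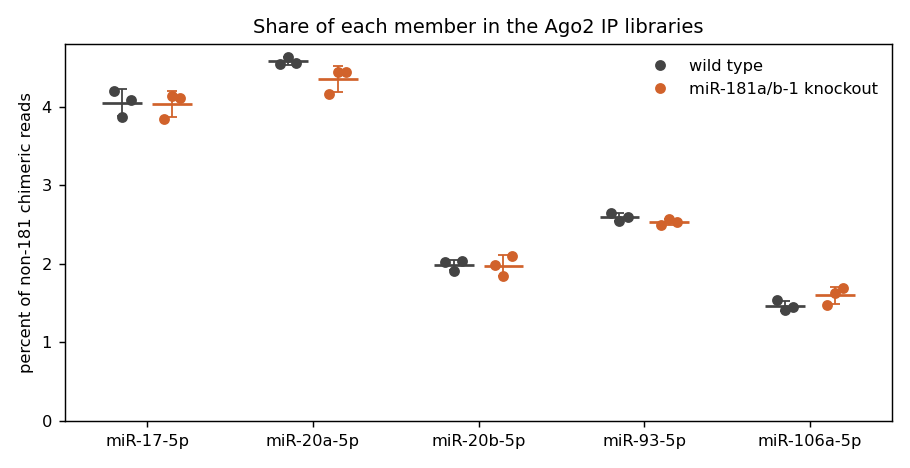
Share of each member among the non-181 chimeric reads (y axis, percent) in 3 wild-type and 3 knockout Ago2 IP libraries. Points are libraries, horizontal lines are means and error bars are SDs. The genotypes overlap for every member with reads except miR-20a-5p, which did not pass the test (adjusted p = 0.113, edgeR). How many of all miRNAs tested had groups without overlap was not counted. The order of the members is the same in both genotypes.

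No member passed the test between the genotypes. miR-17-5p made up 4.05% ± 0.169 of the wild-type non-181 reads and 4.03% ± 0.165 of those of the knockout (SD, n = 3 each), a log2 fold change of -0.04 (SE 0.06, adjusted p = 0.661, edgeR). miR-20a-5p made up 4.58% ± 0.0504 and 4.35% ± 0.162, a log2 fold change of -0.10 (SE 0.05, adjusted p = 0.113). Its lowest wild-type library lay above its highest knockout library, but how many of all 118 miRNAs tested had groups without overlap was not counted. miR-20b-5p was at -0.04 (SE 0.06, adjusted p = 0.704), miR-93-5p at -0.06 (SE 0.06, adjusted p = 0.342) and miR-106a-5p at 0.09 (SE 0.07, adjusted p = 0.342). Of 118 miRNAs tested 6 passed (5.08%), 5 higher (4.24%) and 1 lower (0.847%), against 0 of the 5 members. At an unadjusted p under 0.05 there were 32 of the 118 and, of the members, miR-20a-5p. The number of calls varied with the libraries used: 0 without wild-type library 1, without wild-type library 3 or without knockout library 3, 1 without wild-type library 2, 6 without knockout library 1 and 11 without knockout library 2. DESeq2 made 0 calls, with 23 miRNAs at an unadjusted p under 0.05.

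The other miRNAs of the same hairpin clusters did not pass in this fit either, but calls for 2 of them depended on the setting. miR-18a-5p, with 4419 reads, was at 0.12 (SE 0.07, adjusted p = 0.183). The related miR-18b-5p, with 344 reads, was at 0.66 (SE 0.21, adjusted p = 0.0713), and passed with the replicate number as a block (adjusted p = 0.00534) and with no filter (0.0256). miR-19b-3p was at -0.25 (SE 0.07, adjusted p = 0.0688) with 4110 reads. It passed with the block (0.00407), with no filter (0.00233) and without knockout library 2 (0.0106). miR-19a-3p was at -0.01 (SE 0.13, adjusted p = 0.954) with 1029. miR-25-3p was at -0.11 (SE 0.07, adjusted p = 0.232) and miR-363-3p at 0.36 (SE 0.25, adjusted p = 0.342). The passenger strand miR-17-3p had 646 reads, while the 3p strands of the other members had between 13 and 50 reads each.

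The family's named reads fell in 6643 gene spans, 201 of which held at least 3 family reads in every library. The span with the most was Xiap, an inhibitor of caspases, on chromosome X. Its 463 family reads came as 113, 58 and 44 in wild type and 82, 78 and 88 in the knockout. They were 83.6% of its non-181 reads (95% Wilson interval 80.3% to 86.4%), and between 76.3% and 88% in each library. Reads with the same position and miRNA in 1 library made up 29.6% of them, against 2.38% for the family as a whole. Scaled to reads per 1000000 non-181 reads (RPM), Xiap had means of 1356 ± 132 (wild type) and 1417 ± 276 (knockout) (SD, n = 3 each), with overlapping ranges and a log2 fold change of 0.08 (SE 0.16, adjusted p = 0.914).

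The spans that followed included genes of T cell development, in which the family's share varied. Satb1, a chromatin organiser of thymocytes, had 296 family reads, 15.4% of its non-181 reads, with an interval (13.8% to 17.1%) that held the overall 14.6%. Themis, needed for thymocyte selection, had 179 (10.3%) and Bcl11b, the factor that commits cells to the T lineage, had 177 (21.9%). The interval of Themis (8.94% to 11.8%) lay below the overall share and that of Bcl11b (19.2% to 24.9%) above it. These intervals pool 6 libraries and cover counting error only. In single libraries the share ran from 8.84% to 11.6% in Themis and from 10.9% to 27.3% in Bcl11b. Txnip, an inhibitor of thioredoxin that restrains glucose uptake, had 256 family reads at 49.1%. The transcription regulators Aff3 (293 reads, 36.3%), Cux1 (274, 30.04%) and Tcf12 (168, 22.1%) followed with Mad1l1, a spindle checkpoint gene (185, 25.7%), the calcium channel gene Itpr2 (179, 25.8%), the phosphatase gene Ppm1h (176, 25.9%), the sodium-proton exchanger gene Slc9a9 (167, 23.0%), the kinase gene Prkcb (160, 24.1%) and Tnrc6b, which encodes a partner of Ago2 (148, 23.8%). The ribosomal RNA unit Rn18s-rs5 held 284 family reads at 17.3%. It is present in many copies, so that its reads cannot be placed in 1 locus. All 15 spans held reads of all 5 members, and none of them passed the test between genotypes.

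In a few genes nearly every non-181 read carried the family. Among 669 spans with at least 100 non-181 reads, the family's share had a median of 12% and quartiles of 8.13% and 18.0%. It reached at least 50% in 12 spans, and 6 spans had no family read. The highest was Rasl11b, a small GTPase gene of the Ras group, with 95 of 100 reads and between 86.7% and 100% in each library. Its reads were 22, 13 and 12 in C57BL/6 and 19, 12 and 17 in the knockout, which overlap. Ubb, a polyubiquitin gene, had 95 of 104 reads (91.3%), as 21, 10 and 6 in wild type against 21, 20 and 17. Ubb thus had 222 ± 28.9 and 327 ± 25.4 RPM (SD, n = 3 each), which do not overlap, and did not pass (log2 fold change 0.51, SE 0.32, adjusted p = 0.535, edgeR). Next came Xiap, then Paip1, a partner of the poly(A)-binding protein, with 124 of 155 (80%), and the zinc finger gene Zfp382 with 88 of 111 (79.3%). Ap3s1, a subunit of a vesicle adaptor, had 124 of 199 (62.3%), the DNA-binding protein gene Nabp1 107 of 179 (59.8%) and the sugar transporter gene Slc35b4 109 of 189 (57.7%). Tgfbr3, the TGF-beta co-receptor betaglycan, had 67 of 119 (56.3%) and the sialyltransferase gene St3gal1 91 of 166 (54.8%). In single libraries the share ran from 12.5% to 75% in Tgfbr3 and from 42.3% to 70% in St3gal1. Reads of all 5 members were present in each of the 10 spans.

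**Figure D2:**
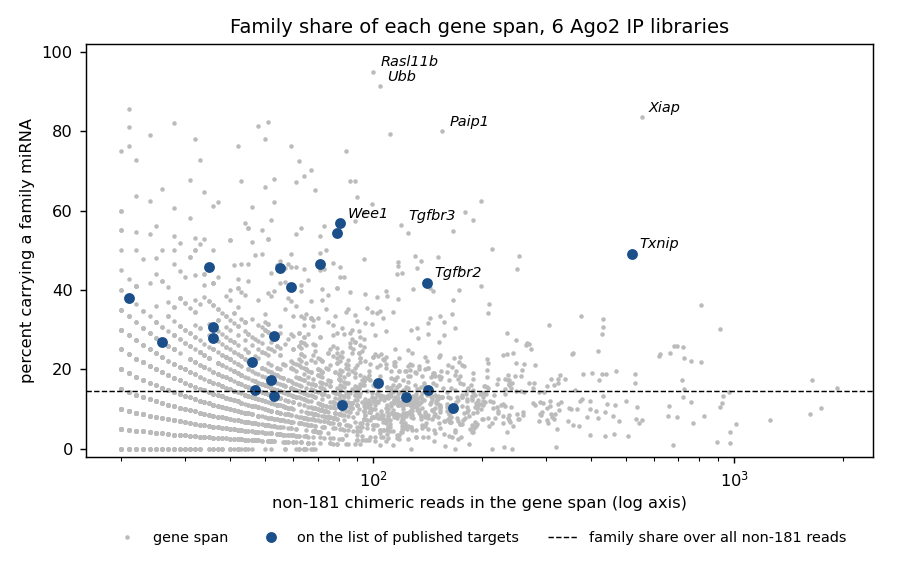
Percent of non-181 chimeric reads that carried a family miRNA (y axis) against the number of non-181 reads (x axis, log scale) for gene spans with at least 20 such reads, pooled over 6 Ago2 IP libraries. Blue points are published targets, the dashed line is the family's overall 14.6%; most blue points lie above the line, and Rasl11b, Ubb, Xiap and Paip1 are at 80% or more.

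A list of 32 published targets of the family was read against these shares. Of its genes 29 had a family read, 16 had at least 10, and 22 had at least 20 non-181 reads. In these 22 the family's share had a median of 28.0%, against a median of 12% over all 3432 spans with at least 20 reads. The share was above the overall 14.6% in 18 of the 22, against 38.6% of all such spans. The 95% Wilson interval lay wholly above it in 12 of the 22, against 15.4% of all such spans, and in none did it lie wholly below. The intervals pool 6 libraries and cover counting error only. The list was drawn up from knowledge of the field with earlier results of these data known.

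Among cell cycle genes on the list, Wee1, the kinase that holds back mitosis, had 46 family reads of 81 (56.8%), from 4 to 14 in each library. The retinoblastoma relatives Rbl2 and Rbl1, which repress E2F targets, had 25 of 55 (45.5%) and 24 of 59 (40.7%). Rb1 itself had 16 of 123 (13.01%), and Zbtb4, a repressor of growth genes, 11 of 36 (30.6%). The other 6 genes of this group had fewer than 10 family reads each. Among survival genes, Bcl2l11, which encodes the death-promoting protein Bim, had 15 of 53 (28.3%), as 5, 5 and 0 in wild type and 1, 3 and 1 in the knockout. The anti-apoptotic gene Mcl1 had 17 of 103 (16.5%), near the overall share. Of the 4 genes of the survival and PI3K group with at least 20 non-181 reads, 3 lay above the overall share, and 2 of them with their whole interval. In the TGF-beta and BMP group, the receptor gene Tgfbr2 had 59 of 141 (41.8%) and the other 2 genes of that group fewer than 10 family reads each. The autophagy genes Atg16l1, Sqstm1 and Ulk1 had 43 of 79 (54.4%), 16 of 35 (45.7%) and 10 of 36 (27.8%), all with intervals above the overall share. Of the rest, Stat3, a cytokine signalling factor, had 33 of 71 (46.5%), the transcription factor gene Creb1 21 of 142 (14.8%) and the stress kinase gene Mapk14 10 of 46 (21.7%). Txnip was the only list member with enough reads to be tested between genotypes, and did not pass (log2 fold change 0.19, SE 0.22, adjusted p = 0.809).

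To describe where in these genes the family was found, family reads on 1 strand were joined into a site where neighbouring positions were at most 20 nt apart. There were 31318 sites, of which 26762 held 1 read. The 389 sites with at least 10 reads held 20.8% of the family's reads and had a median width of 54 nt. The family made up a median of 93.3% of the non-181 reads inside them, at least 90% in 258 sites and at least 50% in 375. The lowest shares were in Malat1 (4.62%), Ly6e (11.4%) and Cdkn1b (15.3%), genes named after their values were seen. High shares follow in part from the definition, which starts from family reads. No wild-type miR-181 read lay in 307 of the 389 sites. All but 1 of them held reads of both genotypes, and 211 held reads of all 6 libraries. Of the 298 large sites in spans of known strand, 40.3% lay within 3000 nt of the end of the gene span, where 3′ untranslated regions are usually found. Over all family reads in protein-coding spans of known strand the share was 26.3%, against 25.6% for non-181 reads of other seeds. The former value counts sites and the latter count reads, and large sites of other seeds were not described. Exons, introns and untranslated regions were not analysed here.

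The largest site, with 452 reads on the plus strand, was chrX:42105995-42106161 (mm10, as are all positions here) in Xiap, 3548 nt before the end of its span. The family made up 96.2% of the non-181 reads there. The interquartile range of its read positions was 20 nt. Txnip held 2 sites, chr3:96561080-96561272 with 137 reads and chr3:96561523-96561666 with 94. The family made up 72.1% of non-181 reads at the first and 56.3% at the second, where miR-142a-3p had 52 reads. In Paip1 118 reads lay at chr13:119457142-119457263, and in Rasl11b 86 reads at chr5:74199285-74199383, a median of 117.5 nt before the end of the span. The Ubb site was the narrowest of these, with 93 reads within the 17 nt of chr11:62553087-62553103 and an interquartile range of 3 nt. In Paip1 the positions were spread over an interquartile range of 55.5 nt.

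**Figure D3:**
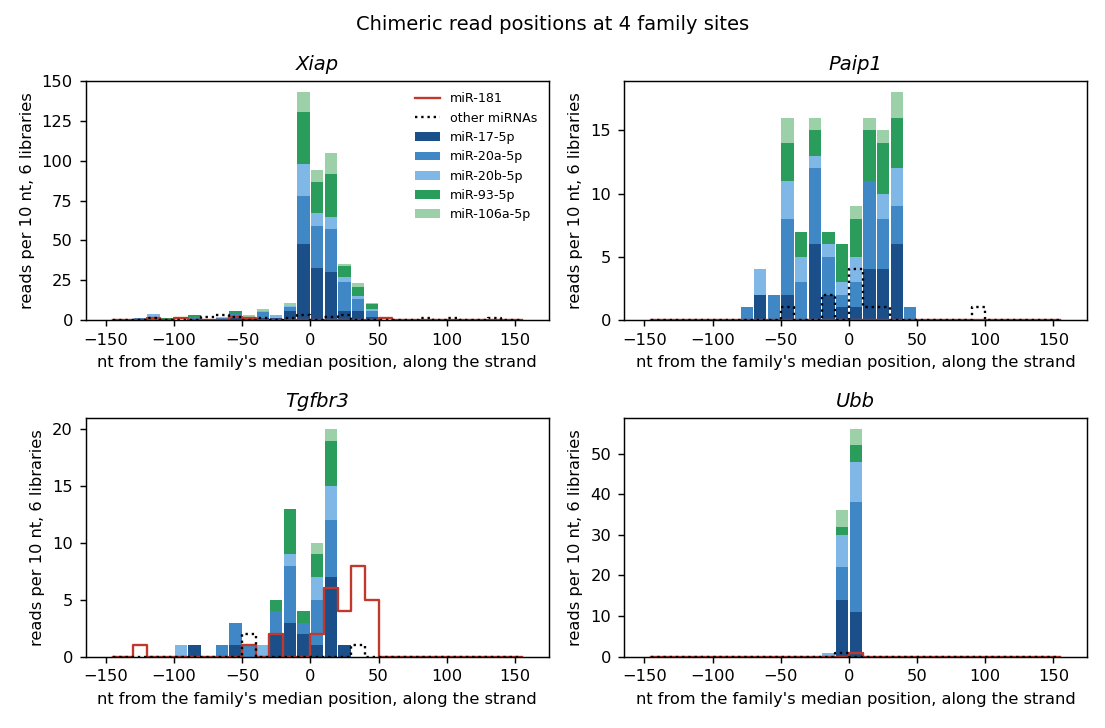
Positions of chimeric reads at 4 family sites, in bins of 10 nt, summed over 6 Ago2 IP libraries (y axis, reads), relative to the median position of the family's reads along the strand (x axis, nt). Stacked bars are the members, the red line is miR-181 and the dotted line other miRNAs; all 5 members overlie each other, Ubb is narrow and Paip1 broad, and miR-181 reads are seen beside the family in Tgfbr3.

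Reads named after different members were often found at the same sites. Of the 389 large sites 234 (60.2%) held reads of all 5 members, 119 held 4, 29 held 3, 5 held 2 and 2 held 1. Of 144 sites with at least 20 reads, 125 held all 5. Counting every site, 41.5% of the family's reads lay at a site with at least 1 other member. For pairs of miRNAs, sites were formed from the reads of both. Of miR-17-5p reads 31.1% lay at a site with miR-20a-5p (15052 reads), against 5.57% with let-7a-5p (13866 reads) and 6.21% with miR-16-5p (19424 reads), which have other seeds. Of miR-93-5p reads, 29.8% lay with miR-17-5p and 5.09% with let-7a-5p. The value for miR-106a-5p was 31.2% with miR-17-5p and 4.62% with let-7a-5p. Within another seed family, 20.2% of let-7a-5p reads lay with let-7f-5p. miR-18a-5p, whose seed differs by A4G, had similar values with both, with 5.05% of its reads at sites of miR-17-5p and 5.36% at sites of let-7a-5p. These are shares of reads, with no test, and depend on the number of reads of the partner. Members differ from miR-17-5p by only 1 to 4 substitutions, all outside the seed. Whether reads of 1 member could carry the name of another was not tested.

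The gene profiles gave the same picture. Over 3416 gene spans with at least 20 non-181 reads, the reads per gene of a member in wild type were set against those of another member in the knockout, so that no library was shared. Spearman's rho over the 20 ordered pairs of different members lay between 0.34 and 0.49, with a median of 0.40. For the 5 members against themselves it lay between 0.33 and 0.52, also with a median of 0.40. Between a member and let-7a-5p, let-7f-5p, miR-16-5p, miR-26a-5p or miR-18a-5p it lay between 0.17 and 0.30 over 50 ordered pairs. The points are genes, which are no independent replicates, and all profiles share the RNA level of the genes. Reads given the name of a near-identical member would also make members alike, which was not tested. Among miRNAs of another seed with at least 1000 reads, the profiles most like that of the summed family, within the same libraries, were those of miR-142a-3p (rho 0.46), miR-16-5p (0.41), let-7a-5p (0.39), let-7g-5p (0.38) and let-7f-5p (0.37). These are also among the miRNAs with most reads, and depth was not evened out.

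Some genes held the members in unequal proportion. With the library as a block, edgeR compared the reads of 2 members gene by gene. In the first comparison, miR-20a-5p against miR-17-5p, 6 spans passed the filter on counts and 1 of them (16.7%) was called. This was Cux1, with 21, 13 and 15 reads of miR-20a-5p in wild type and 11, 24 and 14 in the knockout, against 16, 11 and 4 and 5, 17 and 4 of miR-17-5p. miR-20a-5p was higher in every library, with a log2 ratio of 0.89 relative to the other tested spans (SE 0.24, adjusted p = 0.00187). The call held under 8 of 21 alternatives, and was lost without knockout library 1 (0.65, adjusted p = 0.0977) or knockout library 2 (0.69, adjusted p = 0.118), and in the wild-type libraries alone (0.56, adjusted p = 0.579). A wider filter, at least 30 reads in all, was added after the data were seen and tested 111 spans. Of these 5 (4.5%) were called, 2 higher (1.8%) and 3 lower (2.7%), and Cux1 was not among them (0.53, adjusted p = 0.309). Btg2, an anti-proliferative gene, was lower for miR-20a-5p by this filter (log2 ratio -1.34, SE 0.36, adjusted p = 0.00431), with 60 reads of miR-17-5p and 28 of miR-20a-5p. miR-17-5p was the higher of the 2 in all 6 libraries at Btg2. Wdr1, which promotes actin disassembly, was also lower (-1.70, SE 0.61, adjusted p = 0.0460; 29 and 10 reads), as was Rn18s-rs5 (-1.09, SE 0.30, adjusted p = 0.00680; 74 and 41 reads). Cnot4, of the deadenylase complex, was higher (1.98, SE 0.77, adjusted p = 0.0456; 5 and 26 reads). Counting repeated reads once left 0 calls by edgeR, with 13 spans at an unadjusted p under 0.05, and DESeq2 on all reads made 3 calls.

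In the second comparison, miR-93-5p was set against miR-17-5p and miR-20a-5p together, since miR-106b-5p had no reads. Of 6 spans 3 (50%) were called, 1 higher (16.7%) and 2 lower (33.3%). Txnip had fewer miR-93-5p reads, 5, 1 and 4 in wild type and 9, 5 and 3 in the knockout, against 78 and 92 reads in all of miR-17-5p and miR-20a-5p. Its log2 ratio was -1.21 (SE 0.30, adjusted p = 2.19e-05), and -0.86 in the knockout libraries alone (adjusted p = 0.177). By DESeq2 at the wider filter it did not pass either (-1.15, adjusted p = 0.0654). Rn18s-rs5 had more, 25, 15 and 12 and 20, 14 and 14, with a log2 ratio of 1.25 (SE 0.22, adjusted p = 2.19e-05). This call was lost with no filter (0.64, adjusted p = 0.172) and by DESeq2 at the wider filter (1.41, adjusted p = 0.675), and held under 19 of 21 alternatives. Aff3 was lower (-0.76, SE 0.30, adjusted p = 0.0217), a call lost under 17 of 21 alternatives. By the wider filter, 16 of 165 spans (9.7%) were called, 5 higher (3.03%) and 11 lower (6.67%), of which 2 were hairpins of the members themselves. Zfyve26 was higher for miR-93-5p (2.14, SE 0.53, adjusted p = 8.64e-04), with 21 reads against 10 of miR-17-5p and 3 of miR-20a-5p. Tmem164 (1.70, SE 0.47, adjusted p = 0.00475) and Dnajc13 (1.46, SE 0.44, adjusted p = 0.0128), a gene of endosomal sorting, were higher as well. The water channel gene Aqp11 was lower (-1.79, SE 0.55, adjusted p = 0.00230). Klf3, a repressor of transcription, had 2 reads of miR-93-5p against 15 of miR-17-5p and 29 of miR-20a-5p, and Wdr1 had 1 against 29 and 10. The predicted gene AI837181 had 0 against 23 and 26. DESeq2 called 6 of the 165.

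**Figure D4:**
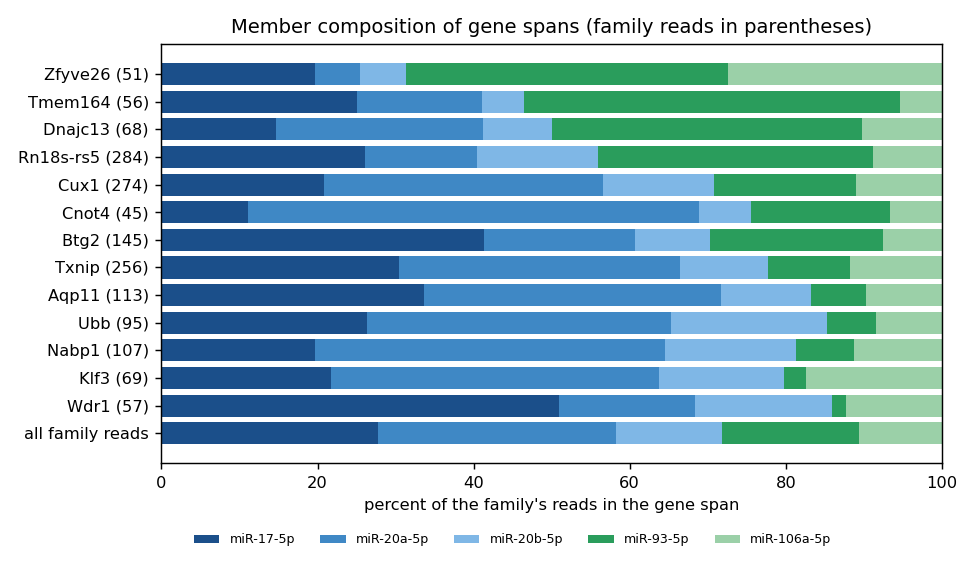
Composition of the family's reads by member (x axis, percent) in gene spans where 2 members or groups of members differed by 1 of the filters, with the number of family reads in parentheses, summed over 6 Ago2 IP libraries. The lowest bar is the whole family; miR-93-5p is the widest segment in Zfyve26, Tmem164, Dnajc13 and Rn18s-rs5 and nearly absent from Klf3 and Wdr1.

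The strongest member differences lay on the hairpins from which the members are cut. Reads inside miRNA hairpin spans were 244 (0.495%) of the family's reads. The Mir20a and Mir93 hairpins (RefSeq, GRCm38.p6) are shown with capitals at positions where at least 3 member reads were placed. On these hairpins all but 1 of the member reads carried the member that the hairpin encodes.
Mir20a hairpin: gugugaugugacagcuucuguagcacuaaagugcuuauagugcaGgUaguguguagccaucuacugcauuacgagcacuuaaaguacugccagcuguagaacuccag
Mir93 hairpin: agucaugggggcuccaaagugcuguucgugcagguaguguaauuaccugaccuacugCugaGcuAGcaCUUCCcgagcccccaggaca

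The Mir20a hairpin (chr14:115044157-115044263, plus strand) held 70 family reads, of which 69 carried miR-20a-5p. They came as 7, 7 and 10 in wild type and 12, 24 and 10 in the knockout. Of these reads 67 were placed at position 47 of the hairpin, inside the mature 5p strand, which runs from position 27 to position 49. The Mir93 hairpin (chr5:138165523-138165610, minus strand) held 80 family reads, all of miR-93-5p, and all lay on the opposite, 3p strand, between positions 54 and 75. They numbered 8, 9 and 7 in wild type and 18, 25 and 13 in the knockout, which do not overlap, with a log2 fold change of 1.07 that did not pass (SE 0.36, adjusted p = 0.112). On the Mir106a hairpin 29 reads of miR-106a-5p lay on its 3p strand. The Mir92-2 hairpin held 47 family reads on its 3p strand. It encodes none of the members, so family reads there could not carry its own miRNA.

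Between the genotypes, 94 family gene spans could be tested, among 616 pairs of a gene span and a seed family. The family's log2 fold changes had a median of -0.04 (quartiles -0.28 and 0.30), against 0.02 for all 616, with 44 above 0 and 50 below. Of the 94, 3 passed (3.19%), against 10 of 616 (1.62%), which were 5 higher (0.812%) and 5 lower (0.812%). The groups did not overlap in 18 of 94 (19.1%), against 14.6% of the 616. At an unadjusted p under 0.05 were 10 of the 94 and 74 of the 616. The 3 spans were Tgfbr3 and Ccng2, which fell in the knockout, and Gm4258, which rose. In Ccnd3, the G1 cyclin gene needed for thymocyte expansion, family reads were 28, 23 and 19 in wild type and 14, 10 and 12 in the knockout. It did not pass (log2 fold change -1.11, SE 0.32, adjusted p = 0.0561).

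Tgfbr3 (chr5:107106567-107289629), the co-receptor that presents TGF-beta ligands, had 27, 22 and 12 family reads in wild type and 2, 1 and 3 in the knockout. Every wild-type library was above every knockout library. In RPM this was 397 ± 66.8 against 35.6 ± 21.8 (SD, n = 3 each), a log2 fold change of -3.41 (SE 0.63, adjusted p = 7.55e-06). Of the 67 reads 61 lay in 1 site, chr5:107107926-107108044 on the minus strand, where all 5 members had reads in wild type: 18 of miR-17-5p, 19 of miR-20a-5p, 12 of miR-93-5p, 5 of miR-20b-5p and 2 of miR-106a-5p. In the knockout the site held 2 reads of miR-20a-5p and 3 of miR-20b-5p. At the same site miR-181 had 13 wild-type reads and 0 knockout reads, and the miR-181 reads within 100 nt of it had a median position 27.0 nt downstream of the family's. Over the whole gene span, reads of other miRNAs were 16, 12 and 4 in wild type and 5, 7 and 8 in the knockout (193 ± 58.6 and 115 ± 37.2 RPM), which overlap. Inside the site other miRNAs had only 1 read in each genotype, too few for a comparison there. In the wild-type libraries enriched for miR-181 the gene held between 140 and 160 miR-181 reads. Whether the RNA level of Tgfbr3 differed between the genotypes was not tested.

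Ccng2, which encodes an atypical cyclin that slows the cell cycle, had 29, 16 and 17 family reads in wild type and 8, 4 and 5 in the knockout, again without overlap. In RPM this was 420 ± 131 against 96.9 ± 36.7 (SD, n = 3 each), a log2 fold change of -1.98 (SE 0.40, adjusted p = 7.37e-04). Its main site, chr5:93270890-93270983 on the plus strand, held 48.3% family reads among its non-181 reads. Reads of other miRNAs were 45, 15 and 13 in C57BL/6 against 13, 5 and 4. These counts meet at 13, while in RPM, at 433 ± 116 and 123 ± 81.0, the groups do not overlap. Whether the family's change at Ccng2 differed from that of the other miRNAs was not tested. Its miR-181 reads were 7, 6 and 8 in C57BL/6 libraries and 0 in each knockout library.

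Gm4258, a long non-coding RNA gene (chr1:137898464-137963020), ends 3435 nt before Mir181a-1, the first of the deleted hairpins. Its family reads were 19, 11 and 11 in wild type and 34, 40 and 27 in the knockout, with a log2 fold change of 1.14 (SE 0.30, adjusted p = 0.0179). It was not called by DESeq2 (adjusted p = 0.218), by edgeR with no filter (0.529), without wild-type library 1 (0.157), without wild-type library 2 (0.0878) or without knockout library 2 (0.0957). Reads of other miRNAs were higher there as well, 2773 ± 322 and 5979 ± 499.8 RPM, and the miR-142a-3p, let-7 and miR-30 seed families each passed the test (log2 fold changes 1.20, 1.03 and 1.85), while the miR-16 seed family did not (0.61, adjusted p = 0.595). Whether the family's change differed from theirs was not tested.

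**Figure D5:**
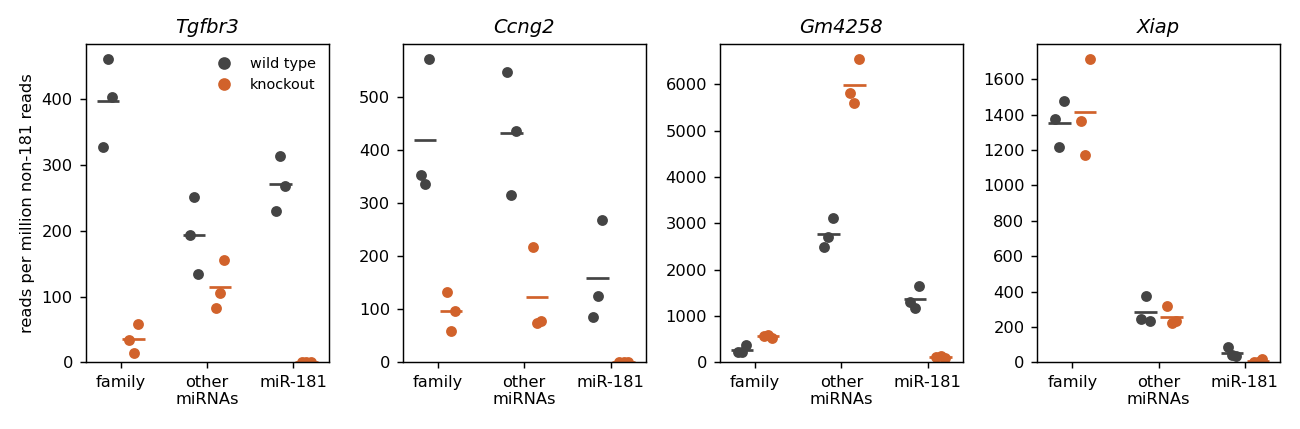
Chimeric reads of the family, of other non-181 miRNAs and of miR-181 (x axis) in RPM (y axis) in 4 gene spans. Points are the 3 wild-type and 3 knockout Ago2 IP libraries and horizontal lines are means. Family reads fall in Tgfbr3, where those of other miRNAs overlap between the genotypes. In Ccng2 the reads of the family and of other miRNAs both fall. All non-181 reads rise in Gm4258, and Xiap overlaps between the genotypes for the family.

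The knockout values were also read against how much miR-181 contacts each gene, with miR-181 reads taken from the enriched wild-type libraries. The 92 tested family spans outside hairpins were split at the middle by their miR-181 reads per non-181 read. The non-181 reads of this ratio were those of the Ago2 IP libraries, so the split is not independent of the comparison. The median log2 fold change was -0.04 in the lower part and -0.05 in the upper, with 25 of 46 spans below 0 in each. Spearman's rho over the 92 spans was -0.01, a description across genes with no test.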

How the data were processed

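Chimeric reads of 12 miR-eCLIP libraries were read from 24 deposited files. Each line of these files is a count of 1 read at a position 1 nt wide with a miRNA name and a strand, as deposited by the authors, neither scaled nor pooled. The submitters' processing notes name Bowtie2 2.4.5, STAR 2.7.10, SAMtools 1.11, UMI-tools 1.1.1 and bedtools 2.30.0, and the builds mm10 and GRCm38.p6. Neither the miRNA annotation nor read filters are stated there. Repeated lines (same library, position, strand and miRNA) were kept, and were 2.38% of the family's reads.

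Groups followed the labels. Positions were named by RefSeq GRCm38.p6 gene spans, hairpins first, then a protein-coding span or other span where it was the only one. Mature sequences were known for 288 of 374 miRNA names. RefSeq lists 1 further mature miRNA with this seed, miR-6383, which had no read. The test on counts was the quasi-likelihood test of edgeR 4.0.16 in R 4.3.3, after TMM scaling and filterByExpr (minimum count 10), adjusted over all features by Benjamini-Hochberg (threshold 0.05). DESeq2 1.42.0 was run as another tool. Intervals and sites were computed in Python 3.11.15 (scipy 1.17.1). miR-181 reads were left out of counts and library sizes. The fits were tested on simulated data.

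The genes named are the 15 spans with most family reads and at least 3 in every library, the 10 of highest family share among spans with at least 100 non-181 reads, the 5 of smallest p in each direction per comparison with adjusted p at most 0.05, the cluster-mates, the 5 miRNAs of most similar profile and the list of 32 published targets (described from 10 reads). Some genes of the lists are not reported here. Ccnd3, the hairpins and further called spans of the added filter were named after their values were seen. The members and lists were chosen with earlier results of these data known. Each pair of libraries within a group differed beyond sampling noise in a chi-square test (largest p = 0.0400). Libraries made from the same mice can differ in this way too, so the test cannot show that the mice were different. All were counted as separate samples, as labelled.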

Additional observations from a re-analysis of the deposited data

Results flagged for a closer look

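The libraries enriched for miR-181 also held family reads, which were not used in any comparison. Over the 6 libraries these were 2878 reads, 15.5% of the non-181 reads, far above the 3 reads taken as the limit that a count of 0 allows. The share was 15.5%, 13.7% and 13.8% in wild type and 15.4%, 16.4% and 17.4% in the knockout, which overlap only at the lowest knockout library. Of all chimeric reads the family made up between 0.113% and 0.190% in wild type and between 4.51% and 4.76% in the knockout.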

How the results depend on the processing

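Tgfbr3 (log2 fold change from -3.89 to -3.01) and Ccng2 (from -2.30 to -1.70) kept direction and call under all 12 alternatives run for gene spans. Family reads at Ccnd3 passed under 4 of 12 alternatives. No member was called under 11 alternatives or with miR-181 kept. Without 1 library miR-20b-5p lay between -0.073 and 0.012, with its sign turned without knockout library 2. miR-19a-3p turned with library sizes alone (0.013), and lay between -0.15 and 0.090 without 1 library, turned without knockout library 1 or wild-type library 2.

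The 6 miRNA calls became 0 by DESeq2, 10 with miR-181 kept and 19 with no filter, and 0 to 11 without 1 library. The 10 gene span calls became 5 by DESeq2 and 6 with runs of positions in place of spans, and 7 to 12 without 1 library. For miR-20a-5p against miR-17-5p the 1 call became 2 by DESeq2 or with library sizes alone, 0 with runs of positions or in wild-type libraries alone, and 0 to 1 without 1 library. The added filter gave 5 calls, 3 by DESeq2, 0 with repeated reads counted once, and 2 to 7 without 1 library. For miR-93-5p the 3 calls became 23 with no filter and 2 to 4 without 1 library. The added filter gave 16 calls, 6 by DESeq2, 11 with repeated reads counted once, and 9 to 15 without 1 library (13 without knockout library 1 or 3). Fewer features were tested with runs of positions (126, 1 and 2). Elsewhere the cause was not tested.

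The family's mean share over the 6 libraries was 14.6%, and 12.2% of all chimeric reads (10.1% in wild type). It lay between 14.5% and 14.7% without 1 library, in wild type between 14.6% and 14.8%, and in the knockout between 14.3% and 14.8%. The mean share of reads at shared sites, 41.7% ± 1.68 (SD, n = 6), became 13.5% with single positions and 48.3% with 50 nt, and 38.7% to 40.6% without 1 library.

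Sample numbers did not pair the libraries (correlations of same-numbered deviations from -0.186 to 0.028 for miRNAs and from -0.0974 to 0.0148 for gene spans). With the replicate block 19 miRNAs and 11 gene spans were called, Ccnd3 among the latter.

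Depth limits these results: 94 of 6643 family spans passed the filter on counts. Gene spans are long, and seed matches were not analysed here.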
